A study of Rattus norvegicus with 4 samples.

Results

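Chemokine ligands are small secreted proteins that attract leukocytes, and the 10 genes Ccl2, Ccl5, Ccl7, Ccl21, Cxcl9, Cxcl10, Cxcl11, Cxcl12, Cxcl16 and Cx3cl1 were followed in the dorsal root ganglia (DRGs) of young rats after cisplatin. They were set by gene symbol among the 22293 protein-coding genes of the table, with no threshold on measured values. Earlier results of these data were known when they were chosen. Lumbar DRGs were measured by RNA sequencing in 4 libraries, 2 from Wistar rats injected intraperitoneally with cisplatin, a platinum-based chemotherapeutic, at 0.3 mg/kg on postnatal days P14 and P16, and 2 from age-matched rats given PBS vehicle on the same days. All rats were wild type, each library came from a different numbered rat, several ganglia were pooled per library, and the sex behind each library is not given in the sources used here. The study places tissue collection at P23, whereas the sample titles give 16 days after treatment, so the interval is uncertain.

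Chemokines are grouped by the spacing of their first cysteines into the CC class (here Ccl2, Ccl5, Ccl7 and Ccl21), the CXC class (Cxcl9, Cxcl10, Cxcl11, Cxcl12 and Cxcl16) and the CX3C class (Cx3cl1). They bind G protein-coupled receptors on leukocytes, neurons and glia, are held in tissue by heparan sulfate, and Cxcl16 and Cx3cl1 are made as membrane proteins from which proteases release the soluble form. In the DRG, Ccl2 is known as a signal from injured neurons and glia to monocytes, and Cx3cl1 as a neuronal ligand for macrophages.

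Total counts were between 21384801 and 25618417 per library. The neuron marker genes added up to 11764 and 8645 CPM (counts scaled to normalised library size) with vehicle and 13391 and 9654 CPM with cisplatin, so the tissue held sensory neurons in every library. Schwann cell markers added up to 39748 and 102319 CPM with vehicle and 32455 and 91641 CPM with cisplatin. The libraries numbered 1 thus held more neuron and less Schwann cell RNA than those numbered 2, in both groups. In such bulk tissue, fewer cells of a type and less RNA per cell cannot be told apart.

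Several of the genes are close neighbours on the Rnor_6.0 genome used for the counts. Ccl2 and Ccl7 lie 9215 bases apart on chromosome 10 with no annotated gene between them. Cxcl11, Cxcl10 and Cxcl9 follow each other on chromosome 14, with gaps of 12441 and 15925 bases and again no gene between. The start-site windows of RefSeq (250 bases before to 50 bases after the start, GRCr8 build) matched 8 of the 10 genes by symbol, all but Ccl2 and Ccl5. Shown are the window of Ccl7, neighbour of Ccl2, those of Cxcl9 and Cxcl10, interferon-inducible neighbours, and that of Cxcl12, the ligand with the most counts. They lie at chr10:67513845-67514144, chr14:16006916-16007215, chr14:15988816-15989115 and chr4:152060531-152060830, all on the + strand, and capitals mark matches to the motifs searched.
Ccl7: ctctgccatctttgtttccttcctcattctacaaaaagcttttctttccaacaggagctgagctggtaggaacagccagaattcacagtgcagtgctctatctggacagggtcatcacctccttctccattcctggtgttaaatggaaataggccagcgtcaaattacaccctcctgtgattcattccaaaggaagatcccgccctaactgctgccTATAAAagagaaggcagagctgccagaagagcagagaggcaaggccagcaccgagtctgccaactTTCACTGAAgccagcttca
Cxcl9: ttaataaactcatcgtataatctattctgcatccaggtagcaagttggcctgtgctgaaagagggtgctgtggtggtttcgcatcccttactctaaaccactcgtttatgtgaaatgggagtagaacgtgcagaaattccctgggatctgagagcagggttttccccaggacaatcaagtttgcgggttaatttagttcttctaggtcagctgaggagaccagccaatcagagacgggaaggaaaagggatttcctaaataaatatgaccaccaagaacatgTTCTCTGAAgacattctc
Cxcl10: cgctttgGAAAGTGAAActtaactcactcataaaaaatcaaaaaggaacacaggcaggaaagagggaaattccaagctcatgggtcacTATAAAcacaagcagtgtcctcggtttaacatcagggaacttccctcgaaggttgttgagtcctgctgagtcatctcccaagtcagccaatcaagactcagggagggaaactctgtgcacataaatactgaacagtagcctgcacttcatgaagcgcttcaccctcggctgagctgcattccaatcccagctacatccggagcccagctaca
Cxcl12: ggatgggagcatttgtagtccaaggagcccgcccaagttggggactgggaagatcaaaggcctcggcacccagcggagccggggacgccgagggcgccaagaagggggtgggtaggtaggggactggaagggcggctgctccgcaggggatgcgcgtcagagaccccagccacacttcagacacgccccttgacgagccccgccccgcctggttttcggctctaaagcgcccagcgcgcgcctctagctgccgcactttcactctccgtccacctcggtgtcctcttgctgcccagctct
Both strands were searched for a TATA box (TATAAA), the interferon gamma-activated site GAS (TTCNNNGAA) and the interferon-stimulated response element ISRE (TTTCNNTTTC). For NF-kappaB a narrow form of its site was searched (GGGNNTTTCC), and other forms of that site were not. Ccl7 held a TATA box beginning at base -34 and a GAS match at 32, counted from the start site, and Cxcl9 held a GAS match at 33. Cxcl10 held a TATA box at -162 and, on the - strand, an ISRE match at -243. The window of Cxcl12 held no match, and at 66.7% it was richer in G and C than that of Cxcl9, at 44.3%. In all, 4 of the 8 windows held the TATA box, 3 the GAS, 1 the ISRE and 0 the narrow NF-kappaB form searched. Over 33465 rat windows of the same length, these were found in 14.2%, 8.87%, 3.92% and 1.53%. The GAS letters read the same on both strands and were counted once, and a match is a description of the letters only.

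To ask whether the ligands differed after cisplatin, 14719 protein-coding genes that passed a filter on low counts were compared with edgeR's quasi-likelihood test, with Benjamini-Hochberg adjustment over all of them. Calling a gene took an adjusted p under 0.05 together with a change of 1.5-fold or more. By that rule 0.00679% of the genes tested were called, 1 gene in all, and it was no chemokine ligand. The filter kept 9 of the 10 ligands. None of them was called by edgeR, DESeq2 or limma without a replicate block, although DESeq2 gave Ccl5 no adjusted p. In edgeR, 2 of the 9, Ccl2 and Cxcl9, were at least 1.5-fold higher at an unadjusted p under 0.05, where 2.77% of all genes tested were. The lower direction held none of the 9 at that threshold and 5.18% of all genes. For any 1 gene, exact two-sided permutation of 2 against 2 rats gives no p below 0.333.

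Of the 9 ligands tested, 7 had a positive and 2 a negative log2 fold change, with a median of 1.01 against -0.01 over all genes tested, of which 49.1% were positive. In 6 of them, Ccl2, Ccl5, Ccl7, Cxcl9, Cxcl10 and Cxcl16, both cisplatin-treated libraries lay above both vehicle-treated libraries, as in 20.6% of all genes tested. For Cxcl10 this rested on the normalisation, with the nearest libraries at 2.17 and 2.16 CPM. In 1, Cxcl12, they lay below, as in 21.2% of all genes. Ccl21 and Cx3cl1 overlapped between the groups. These shares describe the ligands and are no test of them as a group.

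**Figure D1:**
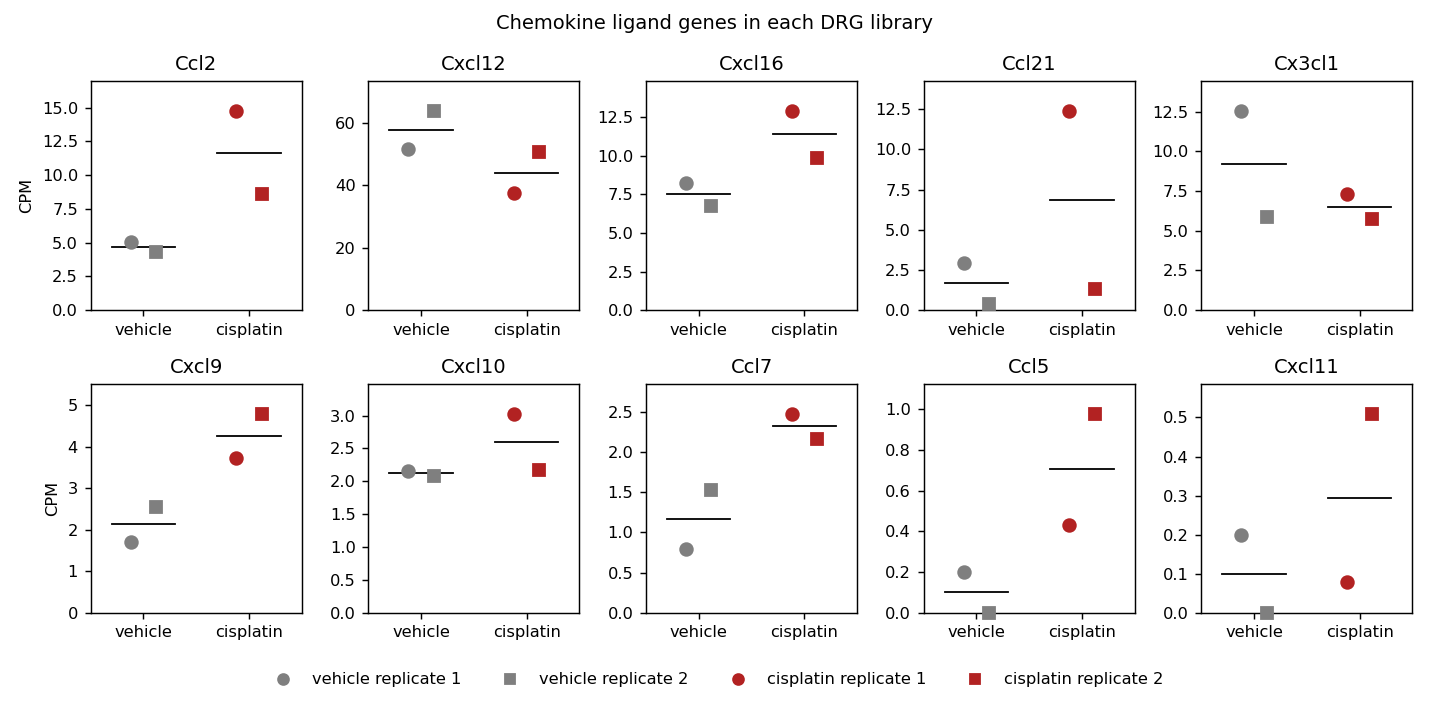
CPM (linear axis from 0) of each of the 10 chemokine ligand genes, with vehicle in grey and cisplatin in red, replicate 1 as a circle, replicate 2 as a square and the group mean as a line. Ccl2 lies above both vehicle-treated libraries in both cisplatin-treated libraries, at 14.8 and 8.59 CPM, while Ccl21 is high in both libraries numbered 1.

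The monocyte-attracting CC ligands Ccl2 and Ccl7 were higher in both cisplatin-treated rats. Ccl2 (ENSRNOG00000007159; chromosome 10, 69412017 to 69413870, + strand) had 126 and 85 counts with vehicle and 375 and 202 with cisplatin. The lower cisplatin-treated library was thus above the higher vehicle-treated library, while the cisplatin-treated rats differed from each other, at 14.8 and 8.59 CPM. The mean level was 4.68 ± 0.506 CPM with vehicle and 11.7 ± 4.37 CPM with cisplatin (SD, n = 2 each). The fold change was 2.49 (log2 fold change 1.32, standard error 0.35, 95% interval 0.45 to 2.18, adjusted p = 0.522 from edgeR), with rank 259 of the 14719 genes by p. Left out in turn, the libraries gave log2 fold changes from 0.88 to 1.66.
Ccl7 (ENSRNOG00000000239; chromosome 10, 69423086 to 69424979, + strand) also attracts monocytes through Ccr2. It had 20 and 30 counts with vehicle and 63 and 51 with cisplatin, with no overlap. Its log2 fold change was 1.01 (standard error 0.48, 95% interval -0.19 to 2.20, adjusted p = 0.555 from edgeR), so a lack of difference and a 4-fold difference were both within its interval. In contrast to its neighbour Ccl2, it was highest in cisplatin replicate 1 by a small margin only, at 2.48 against 2.17 CPM.

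Beside Ccl2 and Ccl7, macrophage markers had no common direction. The 8 markers (Aif1, Cd68, Csf1r, Adgre1, Itgam, Cd163, Mrc1 and Ptprc) added up to 50.9 and 59.4 CPM with vehicle and 48.9 and 55.2 CPM with cisplatin. None was called by edgeR, 0 of 8 at an unadjusted p under 0.05 with the fold threshold, and 3 had a positive and 5 a negative log2 fold change. Cd68, a lysosomal protein of phagocytes, was the marker with the largest positive value, with 39 and 36 counts with vehicle and 73 and 77 with cisplatin (log2 fold change 0.86, adjusted p = 0.533 from edgeR). In 4 of the 8, Aif1, Adgre1, Cd163 and Ptprc, both cisplatin-treated libraries lay below both vehicle-treated libraries, as in 21.2% of all genes tested. In 1 of the 8, Cd68, they lay above, as in 20.6% of all genes. The part of macrophage number in the ligand levels was not tested.

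Ccl5, a chemokine made largely by T cells and macrophages, was near the limit of detection. Ccl5 (ENSRNOG00000010906; chromosome 10, 70739800 to 70744315, - strand) had 5 and 0 counts with vehicle and 11 and 23 with cisplatin. Both cisplatin-treated libraries were higher, at 0.433 and 0.978 CPM against 0.200 CPM in vehicle replicate 1, all from few counts. The 0 counts in vehicle replicate 2 allow a level of up to 0.152 CPM (3 counts, counting error only). Its log2 fold change was 2.64 (standard error 1.09, 95% interval -0.07 to 5.35, adjusted p = 0.532 from edgeR), the widest interval of the 9 after that of Ccl21. It was 1.79 without vehicle replicate 2 and 0.92 with limma on log2(FPKM + 1), and without vehicle replicate 1 the only vehicle-treated library left was at 0 counts, so that the fitted value of 7.02 is no measure of size. Of 7 T cell markers 3 passed the filter, none of them called, with 1 positive and 2 negative log2 fold changes and a median of -0.10. Cd3e, a subunit of the T cell receptor complex, had 0 to 2 counts per library, whereas Cd3g, another subunit, had 35 to 77 and the coreceptor gene Cd4, which macrophages can also express, 101 to 140. The positive one was the kinase gene Lck, with 33 and 24 counts against 81 and 45, and Cd3g and Cd4 were at -0.22 and -0.10 on the log2 scale. The 7 markers added up to 7.71 and 12.5 CPM with vehicle and 9.88 and 11.6 CPM with cisplatin.

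Ccl21, which guides Ccr7-bearing T cells and dendritic cells and is made by lymphatic endothelium, varied widely between the rats of each group. Ccl21 (ENSRNOG00000034290; chromosome 5, 58197680 to 58198782, - strand) had 73 and 8 counts with vehicle and 315 and 31 with cisplatin. In CPM, replicate 1 was 7.18 times replicate 2 in vehicle-treated and 9.41 times replicate 2 in cisplatin-treated rats. The groups overlapped, since cisplatin replicate 2 lay at 1.32 CPM and vehicle replicate 1 at 2.92 CPM. The log2 fold change was 2.02 (standard error 1.23, 95% interval -1.04 to 5.08, adjusted p = 0.614 from edgeR). Without cisplatin replicate 1 it turned to -0.35, and without vehicle replicate 1 it was 4.06. Over the 4 libraries Ccl21 spanned 4.67 log2 units, against 0.52 for Cxcl10, the steadiest ligand tested.
Ccl19, the other Ccr7 ligand and a neighbour of Ccl21 on chromosome 5, chosen after its values were seen, was lower in the libraries numbered 1, with 35 and 55 counts with vehicle and 47 and 68 with cisplatin. Ccr7 itself had 5 and 7 counts with vehicle and 2 and 3 with cisplatin, too few for the test. The 5 lymphatic endothelium markers added up to 211 and 280 CPM with vehicle and 213 and 219 CPM with cisplatin, mostly from Reln and Pdpn, which other cells also express. Lyve1 had 90 and 56 counts against 126 and 94, and Prox1, the lineage-defining transcription factor, had 11 and 6 against 4 and 1. Their part in the level of Ccl21 was not tested.

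The interferon-inducible ligands Cxcl9, Cxcl10 and Cxcl11, which bind Cxcr3 on activated T cells, had log2 fold changes of 1.01 for Cxcl9 and 0.29 for Cxcl10, with intervals that overlapped, and too few counts for a test of Cxcl11. The difference between Cxcl9 and Cxcl10 was not tested. Cxcl9 (ENSRNOG00000022242; chromosome 14, 17228856 to 17234712, + strand) had 43 and 50 counts with vehicle and 95 and 113 with cisplatin, with both treated rats above both controls. The fold change was 2.01 (log2 fold change 1.01, standard error 0.39, 95% interval 0.04 to 1.97, adjusted p = 0.523 from edgeR). It stayed between 0.76 and 1.31 with each library left out.
Cxcl10 (ENSRNOG00000022256; chromosome 14, 17210733 to 17212930, + strand) had 54 and 41 counts with vehicle and 77 and 51 with cisplatin. The groups were barely apart, with cisplatin replicate 2 at 2.17 and vehicle replicate 1 at 2.16 CPM. Cisplatin replicate 2 had the fewer counts of these and the larger library, so their order rests on the normalisation. The log2 fold change was 0.29 (standard error 0.38, 95% interval -0.66 to 1.25, adjusted p = 0.820 from edgeR). Cxcl11 (ENSRNOG00000022298; chromosome 14, 17195014 to 17198291, + strand) was the ligand removed by the filter, with 5 and 0 counts with vehicle and 2 and 12 with cisplatin, and its groups overlapped. Cxcl10 and Cxcl11 lie within the span of Art3 on the opposite strand, which had 4145 to 6663 counts per library. The sources used here do not state whether the counting used strand, so both values are uncertain.

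Cxcl12, a ligand of Cxcr4 and Ackr3 made by stromal and endothelial cells, was the only ligand lower in both cisplatin-treated rats. Cxcl12 (ENSRNOG00000013589; chromosome 4, 149261044 to 149273891, + strand) had 1293 and 1255 counts with vehicle and 949 and 1190 with cisplatin. In CPM the groups were separated by a narrow gap, with vehicle replicate 1 at 51.7 and cisplatin replicate 2 at 50.6. The log2 fold change was -0.39 (standard error 0.23, 95% interval -0.97 to 0.19, adjusted p = 0.607 from edgeR). Of the pericyte markers Pdgfrb, Rgs5, Cspg4 and Abcc9, 4 of 4 had negative log2 fold changes and none was called by edgeR. In 2 of the 4, Rgs5 and Abcc9, both cisplatin-treated libraries lay below both vehicle-treated libraries, as in 21.2% of all genes tested. Only Rgs5 was at least 1.5-fold lower at an unadjusted p under 0.05 in edgeR, as were 5.18% of all genes. The sums over the 4 pericyte markers, 169 and 233 CPM with vehicle and 127 and 181 CPM with cisplatin, overlapped. Fibroblast and meninges markers added up to 4817 and 6566 CPM against 2573 and 5019 CPM, most of it from the collagen gene Col1a1 at 4045 and 5312 against 1847 and 3766 CPM. Of these 6 markers 3 had positive and 3 negative log2 fold changes. Blood endothelium markers added up to 91.2 and 105 CPM against 77.1 and 108 CPM, with 2 positive and 2 negative. Whether these cells had a part in the level of Cxcl12 was not tested.

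Of the ligands made as membrane proteins, Cxcl16 was higher in both cisplatin-treated rats and Cx3cl1 overlapped between the groups. Cxcl16 (ENSRNOG00000026647; chromosome 10, 57060007 to 57064600, - strand), a ligand of Cxcr6 and scavenger receptor for oxidised lipoprotein, had 207 and 133 counts with vehicle and 328 and 232 with cisplatin. The log2 fold change was 0.60 (standard error 0.27, 95% interval -0.07 to 1.27, adjusted p = 0.542 from edgeR). It overlaps Zmynd15 on the other strand, which had 15 to 18 counts per library.
Cx3cl1 (ENSRNOG00000016326; chromosome 19, 10644244 to 10653800, - strand) had 314 and 116 counts with vehicle and 185 and 135 with cisplatin. Vehicle replicate 1 stood apart at 12.5 CPM, with the other libraries between 5.74 and 7.28 CPM. The log2 fold change was -0.50 (standard error 0.42, 95% interval -1.54 to 0.53, adjusted p = 0.707 from edgeR), and without vehicle replicate 1 it turned to 0.15. Neuron markers added up to 11764 and 8645 CPM with vehicle and 13391 and 9654 CPM with cisplatin, and the groups overlapped. Of these markers 8 of 8 had positive log2 fold changes, as had 49.1% of all genes tested, and none was called by edgeR. Their part in the level of Cx3cl1 was not tested. The sheddases that release both ligands were lower on average, but for each of them the groups overlapped in CPM. Adam10 had 2907 and 3634 counts with vehicle and 1645 and 2985 with cisplatin (log2 fold change -0.65, adjusted p = 0.614 from edgeR). Adam17 had 1985 and 1966 against 1604 and 1961 (-0.29, adjusted p = 0.697 from edgeR). Among the 8 proteases that shed or trim chemokines, 7 were tested and none was called, with 3 positive and 4 negative values and a median of -0.09.

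**Figure D2:**
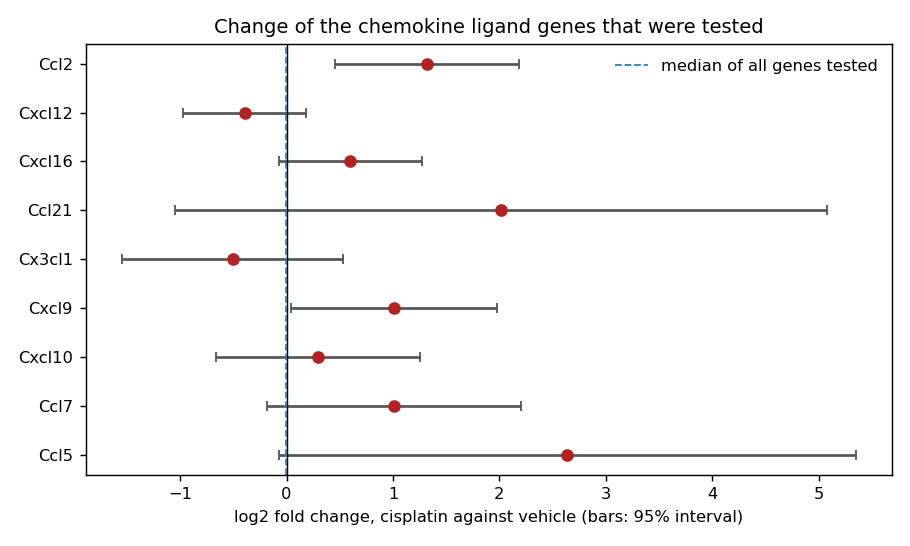
Log2 fold change of the 9 ligands tested, cisplatin against vehicle, as points with 95% intervals from edgeR, and the median of all genes tested as a dashed line at -0.01. The intervals of Ccl2 and Cxcl9 lie above 0, and the other 7 include 0.

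Levels of different genes were compared per length, in FPKM as deposited (counts scaled to gene length and to 1 constant per library). Over the 4 libraries Ccl2 had the highest mean, 9.57 ± 5.60 FPKM, followed by Cxcl12 at 9.15 ± 1.91, Cxcl16 at 5.42 ± 1.52, Ccl21 at 4.98 ± 6.46 and Cx3cl1 at 2.46 ± 1.01 FPKM (SD, n = 4). Cxcl9, Cxcl10 and Ccl7 were nearly level at 2.09, 2.03 and 2.00 FPKM, and Ccl5 and Cxcl11 were lowest at 0.723 and 0.124 FPKM. The ranges of every pair of neighbours in this order overlapped, and only Ccl7 and Ccl5 kept their order in 4 of 4 libraries. In both vehicle-treated libraries Cxcl12 was the highest ligand, at 9.33 and 11.4 FPKM, and in both cisplatin-treated libraries it was Ccl2, at 17.3 and 10.1 FPKM. Among all genes tested, Ccl2 lay at percentile 55.6 of mean FPKM and Ccl5 at 10.8.
Summed over the 10 ligands, the level was 31.7 and 27.7 FPKM in vehicle-treated and 56.9 and 37.8 FPKM in cisplatin-treated rats. Cxcl12 made up 29.4% and 41.1% of that sum in vehicle-treated and 11.8% and 24.2% in cisplatin-treated rats. Ccl2 made up 18.6% and 18.1% against 30.4% and 26.6%. The share of Cxcl16 varied less, with its lowest value, 13.0%, in cisplatin replicate 1. By class, the 4 CC ligands added up to 8.95 and 6.25 CPM with vehicle and 30.1 and 13.0 CPM with cisplatin. In cisplatin replicate 1, Ccl2 held 14.8 CPM of that sum and Ccl21, whose groups overlapped, 12.4 CPM. The 5 CXC ligands added up to 64.0 and 75.1 against 57.1 and 67.9 CPM. Most of the CXC sum was Cxcl12, whereas Cxcl9, Cxcl16 and, by a narrow margin, Cxcl10 lay above both vehicle-treated libraries in both cisplatin-treated libraries.

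**Figure D3:**
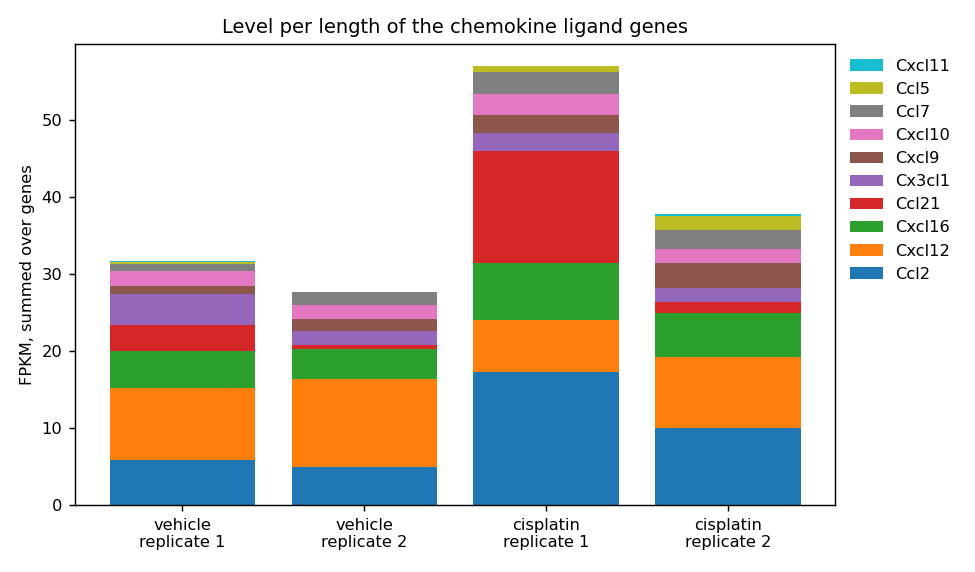
FPKM of the 10 chemokine ligand genes stacked per library (linear axis from 0). The sum reaches 56.9 FPKM in cisplatin replicate 1, where Ccl2 and Ccl21 take 30.4% and 25.5%.

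The ligands did not share 1 library order. Cisplatin replicate 1 was the highest library for 5 of the 10 (Ccl2, Ccl7, Ccl21, Cxcl10 and Cxcl16), cisplatin replicate 2 for 3 (Ccl5, Cxcl9 and Cxcl11), and each vehicle-treated library for 1. Vehicle replicate 2 was the lowest library for 6 of the 10.

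Gene length moved with the comparison. Across the 14719 genes tested, the log2 fold change had a Spearman's rho of -0.36 with exonic length, although genes are not independent replicates, and the ligands had a median length of 1316.5 bases against 2371 bases of all genes tested. With each library's trend over gene length removed, the log2 fold changes were 1.08 for Ccl2, 0.79 for Ccl7, 0.89 for Cxcl9, 0.51 for Cxcl16, 0.12 for Cxcl10 and -0.17 for Cxcl12, each nearer to 0 than before with its direction kept. Ccl21 and Ccl5 were at 1.78 and 2.32, and Cx3cl1 at -0.43.

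None of the 18 chemokine receptor genes was called by edgeR. Of these, 5 passed the filter, 3 with positive and 2 with negative values and a median of 0.29, and 5 had 0 counts in all libraries. Cxcr4, the receptor of Cxcl12, was the most abundant, with 551 and 392 counts with vehicle and 857 and 541 with cisplatin (log2 fold change 0.44, standard error 0.25, adjusted p = 0.600 from edgeR). It was higher in both treated rats while Cxcl12 was lower in both. Ackr3, the scavenging receptor of Cxcl12 and Cxcl11, had 306 and 375 counts against 472 and 509, and its groups overlapped in CPM (log2 fold change 0.36, adjusted p = 0.683 from edgeR). Ccr10, a receptor for skin-associated chemokines, was the next most abundant, and is named after its values were seen, with 95 and 53 counts against 115 and 81.
Cx3cr1, the receptor of Cx3cl1 on macrophages, had 15 and 19 counts with vehicle and 23 and 28 with cisplatin (log2 fold change 0.43, adjusted p = 0.801 from edgeR). Ccr1, a receptor of Ccl5 and Ccl7, had 8 to 15 counts per library. Cxcr6, the receptor of Cxcl16, had 0 to 5 counts per library. Cxcr3, the receptor of Cxcl9, Cxcl10 and Cxcl11, and Ccr2, the main receptor of Ccl2, had 0 counts in all 4 libraries, which allows levels of up to 0.118 to 0.152 CPM. For Ccr2 the table holds a gene model of 286 exonic bases only, so its 0 says little about the transcript.
Ackr1 was not analysed here by symbol. A row without gene symbol on chromosome 13 that carries the protein name of mouse Ackr1, the receptor that binds many chemokines on venules, was singled out after its values were seen. It had 2004 and 1921 counts with vehicle and 2923 and 2333 with cisplatin (log2 fold change 0.27, adjusted p = 0.691 from edgeR on all gene biotypes). Of the other 4 atypical receptors 3 were tested, with a median of -0.13 and none called. Besides Ackr3 these were Ccrl2, with 18 and 27 counts against 7 and 22, and Ackr4, with 14 and 9 against 17 and 6.

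**Figure D4:**
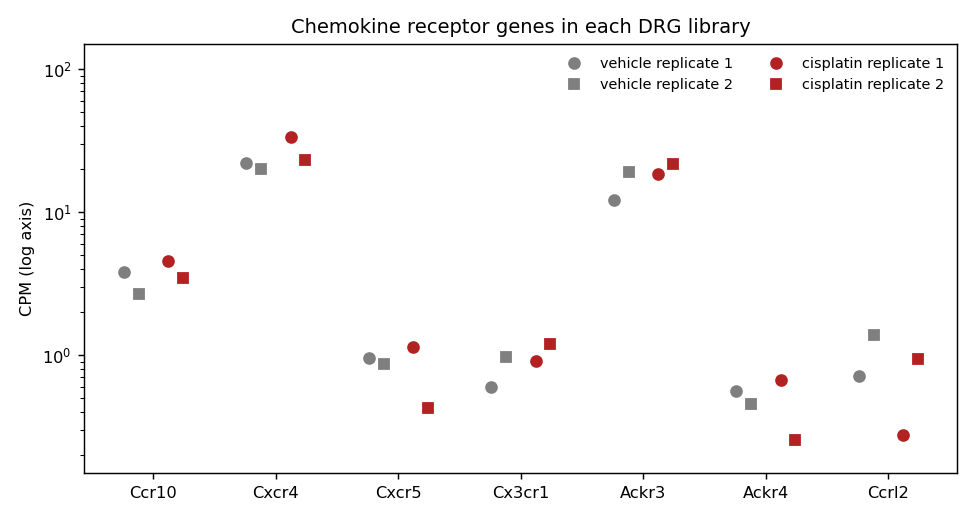
CPM (log axis) of 4 chemokine receptor and 3 atypical receptor genes that passed the filter, per library, with vehicle in grey and cisplatin in red. Cxcr4 and Ackr3 lie above the other 5 genes in every library. Only for Cxcr4 do both cisplatin-treated libraries lie above both vehicle-treated libraries, by a narrow gap that rests on the normalisation.

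Other chemokine ligands and the pathways around them held no called gene in edgeR's test. Of 26 further chemokine ligand genes 11 were tested, with 9 positive values and a median of 0.18. Ccl6, a myeloid chemokine, had 100 and 82 counts with vehicle and 151 and 160 with cisplatin (log2 fold change 0.64, adjusted p = 0.541 from edgeR). Ccl24, which attracts eosinophils, had 20 and 11 counts against 9 and 11, and Cxcl17, a mucosal chemokine, had 14 and 6 against 33 and 9.
Of the 10 genes of interferon gamma signalling, which drives Cxcl9 to Cxcl11, 9 were tested, 5 with positive and 4 with negative values and a median of 0.01. Ifng itself had 0 counts in all libraries. Ifngr2, a chain of its receptor, had 616 and 696 counts with vehicle and 1246 and 1025 with cisplatin (log2 fold change 0.63, standard error 0.24, adjusted p = 0.523 from edgeR). The kinase gene Jak2 was at 909 and 860 against 717 and 812 counts, and the transcription factor gene Irf1 at 225 and 176 against 268 and 252.
All 12 genes of NF-kappaB signalling, which drives Ccl2 in inflamed tissue, were tested, 3 with positive and 9 with negative values and a median of -0.21. The kinase complex genes Ikbkb, Chuk and Ikbkg had the smallest p of them, with log2 fold changes of -0.40, -0.44 and -0.70 and adjusted p = 0.601, 0.607 and 0.604 from edgeR.
Of 13 genes for heparan sulfate carriers and synthesis 11 were tested, 5 with positive and 6 with negative values and a median of -0.03. Ndst1, which starts the sulfation of the chains, had 1040 and 844 counts with vehicle and 391 and 466 with cisplatin (log2 fold change -1.26, standard error 0.21, adjusted p = 0.522 from edgeR, unadjusted p = 0.0014). Hs6st1 and Sdc1 were at 0.29 and 0.38, both not called. The protease gene Mmp9 had 59 and 21 counts against 88 and 78. Dpp4, which trims the start of several chemokines, had 132 and 108 against 151 and 236. Mmp14 had 3907 and 4985 against 2760 and 3708 counts, and its groups overlapped in CPM.

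The direction of each ligand tested was kept under the other scalings of the libraries (DESeq2's size factors and library size alone), and turned for Ccl21 and Cx3cl1 when 1 rat was left out.

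**Figure D5:**
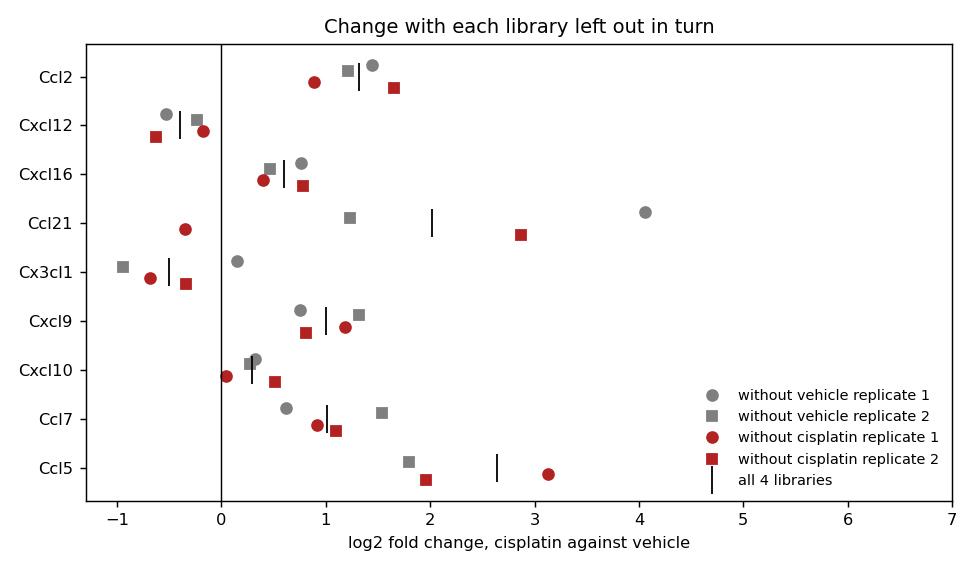
Log2 fold change of the 9 ligands tested with each library left out in turn (coloured points) and with all 4 libraries (black bars). Ccl21 spans -0.35 to 4.06 and Cx3cl1 -0.94 to 0.15, crossing 0, while Ccl2 stays between 0.88 and 1.66. The value of Ccl5 without vehicle replicate 1 is not drawn, since the vehicle library that is left holds 0 counts.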

How the data were processed

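Lumbar DRG RNA of 2 vehicle-treated and 2 cisplatin-treated rats was sequenced after poly(A) selection. The authors trimmed the reads, mapped them to Ensembl Rnor_6.0 with HISAT2 2.0.5 and assembled transcripts with StringTie 1.3.3b, and the submitters' processing notes also list featureCounts 1.5.0-p3. The authors deposited whole-number counts per gene without normalisation. They also deposited FPKM values, which equal the count divided by gene length times 1 constant per library. The constants do not follow the total counts of the libraries. The strand setting is not given in the sources used here.

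Groups and replicate numbers came from the sample titles. Protein-coding genes were filtered with filterByExpr, which kept 14719, normalised with TMM (factors 0.938 to 1.10) and tested with edgeR 4.0.16 (glmQLFit, glmQLFTest) in R 4.3.3. Each standard error is the absolute log2 fold change over the square root of F. CPM of genes outside the filter used the same scaling. DESeq2 1.42.0 and limma 3.58.1 on log2(FPKM + 1) and log2(FPKM + 0.1), which understates the change of low genes, were alternatives, together with other scalings, filters and gene sets, a lowess offset for gene length (span 0.3), a replicate block and leaving out each library. The tests were checked on simulated data with 200 genes changed 4-fold. The simulated libraries were set to vary less than these data, so the check does not give the power here. The closest pair of libraries, vehicle replicate 2 and cisplatin replicate 2, differed by 46.5 chi-square units per degree of freedom, more than sampling noise. On that scale the vehicle-treated libraries differed from each other by 119 and the cisplatin-treated libraries by 155. Floors of 3 counts cover counting error only, as PCR copies could not be told from separate molecules.

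The ligands, gene lists and motifs were chosen with earlier results of these data known, so no p was adjusted over a list alone. Besides the 10 ligands, the text names their receptors, Adam10 and Adam17, and in each pathway list the called genes or else the 3 with the smallest p. Of the receptors, 1 that passed the filter is not reported here. Others are marked where they appear, apart from marker genes and genes at 0. For 4 ligands the 3 genes most alike over the libraries are named. Start-site windows came from RefSeq (GRCr8), and coordinates of genes from the deposited tables.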

Additional observations from a re-analysis of the deposited data

How the results depend on the processing

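Without a replicate block, no alternative called a ligand. Over all genes, edgeR called 0 higher and 1 lower in the reported fit and with the size factors of DESeq2, library sizes, all biotypes or the gene length offset, as did limma on unfiltered log2(FPKM + 1). Testing unfiltered genes gave 2 and 2, and a minimum of 10 counts per library gave 1 and 1. With 1 library left out, edgeR called between 0 and 4 in either direction: 4 and 3 without vehicle replicate 1, 0 and 2 without vehicle replicate 2, 0 and 0 without cisplatin replicate 1 (589 genes at an unadjusted p under 0.05), and 4 and 4 without cisplatin replicate 2. DESeq2 called 50 higher and 90 lower, and limma 2 and 2 on log2(FPKM + 1) and 1 and 1 on log2(FPKM + 0.1). The lowest adjusted p of a ligand was 0.102, for Ccl2 with DESeq2.

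The titles number the rats 1 and 2 in each group, but no source says that the numbers pair them, and the library names number the cisplatin-treated rats 4 and 6. The differences between replicates 2 and 1 correlated between the groups across genes (Pearson's r = 0.44). With the replicate block, edgeR called 494 genes higher and 1038 lower (3.36% and 7.05% of those tested), among them 2 ligands, both higher: Ccl2 (log2 fold change 1.28, adjusted p = 0.00689) and Ccl21 (1.96, adjusted p = 0.0057). With the block and the gene length offset it called 254 and 709, again with Ccl2 and Ccl21 as the 2 ligands.

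Of the ligand values under the alternatives, 136 kept their direction and their side of the threshold (for Ccl5 with DESeq2, which gave it no adjusted p, the direction only), 4 passed it (those of Ccl2 and Ccl21 with the block) and 2 turned direction: Ccl21 from 2.02 to -0.35 without cisplatin replicate 1 (range 4.06 to -0.35 with 1 library left out), and Cx3cl1 from -0.50 to 0.15 without vehicle replicate 1 (range -0.94 to 0.15). The cause was not tested. Depth limits Ccl5 and Cxcl11, which had 0 counts in vehicle replicate 2. Where 1 library was left out, the lone library of its group was assumed to vary like the other group.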

Other observations

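The genes whose profile over the 4 libraries was most like that of a ligand were found by the root-mean-square difference of log2 CPM, each gene centred on its own mean. The matches, over 4 libraries and 14719 genes, are given as a description. Nearest to Ccl2 were Cd99l2, Pik3c2g and Ppp1r1a, at differences of 0.025, 0.026 and 0.031 log2 units. The table holds 2 genes under the symbol Cd99l2, and the one meant is ENSRNOG00000023841, with 104 and 67 counts against 298 and 162. Ppp1r1a, an inhibitor of protein phosphatase 1, had 816 and 548 counts with vehicle and 2277 and 1267 with cisplatin. Nearest to Cxcl12 were Ctnnd1, Tet1 and Ppp6r3, at 0.012, 0.016 and 0.016, and nearest to Cx3cl1 were Frmpd4, Galr1 and Lhfpl1, at 0.027, 0.044 and 0.047. Galr1, a galanin receptor, had 91 and 32 counts with vehicle and 56 and 38 with cisplatin. Ccl21 had no close match: its nearest genes were Sit1, Hes3 and Cdh26, at 0.58, 0.62 and 0.66 log2 units, with 0 to 44 counts per library.

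Satellite glia markers, which were not used beside a ligand, added up to 4014 and 3291 CPM in vehicle-treated and 4367 and 3782 CPM in cisplatin-treated rats. Of the 4 markers 2 had positive and 2 negative log2 fold changes, with a median of 0.01. Kcnj10, their inward rectifier potassium channel, had 492 and 247 counts with vehicle and 201 and 165 with cisplatin (log2 fold change -1.11, adjusted p = 0.522 from edgeR), while Fabp7 and Apoe, which carry lipids, were at 0.55 and 0.19 on the log2 scale. Mitochondrially encoded genes took 1.53% and 2.58% of all counts in vehicle-treated and 5.46% and 4.78% in cisplatin-treated rats, and their part in the values of the ligands was not tested.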
